A study of Mus musculus with 6 samples.

Results

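The comparison of the high-fat cholesterol (HFC) diet alone with chow rests on 2 of the 6 liver arrays of this study, chosen by their sample titles. Each of these 2 arrays carried the liver RNA of 1 mouse, so 2 mice stand for the diet. The mice were C57BL/6, aged 7 weeks at the start, ate the HFC diet for 12 days and, by the study's design text, were dosed by mouth with vehicle once a day from day 5. The control RNA was 1 pool from 6 C57BL/6 mice of the same age on standard chow, dosed with vehicle over the 12 days. The same pool was the second sample on every array. The other arrays carried livers of mice on the HFC diet with lovastatin at 30 mg/kg (2 arrays) or fenofibrate at 100 mg/kg (2 arrays), both given from day 5, and serve here only for comparison. The design text counts 24 mice, 6 to an arm; no others were analysed here. Sex, and what the HFC diet contained, were not given in the sources used here.

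Every value below is a log2 ratio of a mouse over the chow pool, so that -1 means that the level on that array was lower by a factor of 2 and 1 that it was higher by a factor of 2. The direction, mouse over pool, is likely rather than stated: on each array the labels put the mouse in channel 1 and the pool in channel 2. The mouse was in Cy5 on both HFC arrays, so diet and any gene-specific dye effect cannot be told apart on these 2 arrays alone. A pool gives no spread between chow mice, and the test of the mean against 0 therefore leaves that spread out. In liver homogenate, fewer cells of a type and less RNA per cell cannot be told apart. The files hold ratios without intensities, so the presence of hepatocyte RNA could not be checked as a level. Of 10 hepatocyte markers, 6 lay below 0 (27.3% of all features) and 2 above 0 (29.6%) on both HFC arrays. Alb, serum albumin, lay at -0.47 and -0.15, and Ttr, the thyroxine carrier, at -0.72 and -0.69.

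A fault in the deposited values of HFC replicate 2 comes before any result. The array's columns fall into 8 blocks of up to 27, and in 4 of them the values of this mouse sit beside the wrong probe. In those blocks, the correlation across spots with HFC replicate 1 lay between -0.0422 and 0.0086 as deposited. After each block was rotated forward by 11, 22, 6 or 17 columns, it lay between 0.249 and 0.323, and in the 4 other blocks between 0.171 and 0.323. Against the mean of 4 other arrays, the rotated blocks reached 0.297 to 0.311, while the best of all other rotations reached 0.0448. These 4 were HFC replicate 1, lovastatin replicate 2 and both fenofibrate arrays, so this check is not independent of the one before. The displaced blocks hold 10703 of the 21288 probes (50.3%), and the values were put back for everything that follows. Putting them back left 588 probes without a value in HFC replicate 2, and 535 features were tested on 1 HFC array. With all blocks in place, Pearson's r between both HFC arrays was 0.264 across 18963 features, against 0.0888 as deposited. These are correlations across genes, which are not independent replicates.

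**Figure D1:**
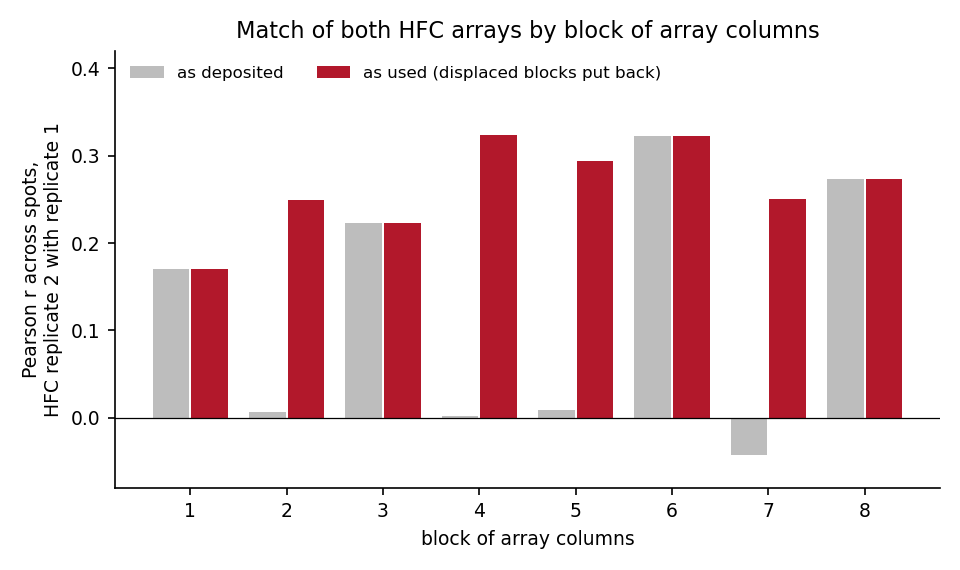
Pearson's r across spots between HFC replicate 2 and HFC replicate 1 (y axis) in each of the 8 blocks of array columns (x axis), as deposited in grey and as used in red. In blocks 2, 4, 5 and 7 the deposited values gave r between -0.0422 and 0.0086, and the values put back gave 0.249 to 0.323.

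Cholesterol is made in the liver from acetyl-CoA through mevalonate, farnesyl pyrophosphate, squalene and lanosterol. The genes of this route are switched on together by SREBP-2, a transcription factor that is held in the endoplasmic reticulum by SCAP and the INSIG proteins when membranes hold enough sterol. Sterol that the liver does not need leaves it through the ABCG5 and ABCG8 transporters or as bile acids, whose synthesis is set by CYP7A1 and CYP8B1 and is restrained by the receptor FXR and its target SHP.

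Promoter sequences are shown for the 2 named genes that passed the test against the pool, and for Hmgcs1, the 1 of 15 measured members with a window in the table that holds a classical sterol regulatory element. Each is the 250 bases before the annotated start, 5′ to 3′ on the gene's own strand, from RefSeq on build GRCm38.p6. Capitals mark CCAAT, the box bound by NF-Y, read on either strand (as CCAAT or ATTGG), and TCACCCCAC, the sterol regulatory element bound by SREBPs.
Idi1, chr13:8885356-8885605, plus strand: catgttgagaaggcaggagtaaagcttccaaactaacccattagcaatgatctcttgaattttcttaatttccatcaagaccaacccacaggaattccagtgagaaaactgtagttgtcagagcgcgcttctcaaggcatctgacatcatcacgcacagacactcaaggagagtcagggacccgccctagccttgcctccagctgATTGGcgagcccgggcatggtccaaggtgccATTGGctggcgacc
Msmo1, chr8:64733579-64733828, minus strand: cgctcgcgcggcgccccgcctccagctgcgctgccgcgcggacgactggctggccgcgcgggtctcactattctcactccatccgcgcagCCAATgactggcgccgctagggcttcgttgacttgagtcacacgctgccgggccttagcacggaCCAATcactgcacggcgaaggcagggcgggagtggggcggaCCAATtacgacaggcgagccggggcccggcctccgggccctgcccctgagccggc
Hmgcs1, chr13:119690101-119690350, plus strand: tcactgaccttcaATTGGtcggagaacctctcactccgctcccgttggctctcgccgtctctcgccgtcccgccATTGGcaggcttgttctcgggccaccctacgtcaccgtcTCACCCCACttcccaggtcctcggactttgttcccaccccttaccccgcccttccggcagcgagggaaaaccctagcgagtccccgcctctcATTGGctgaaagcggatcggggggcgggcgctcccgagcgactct

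In the Idi1 window the marked boxes begin 45 and 14 bases before the start, and in the Msmo1 window 160, 96 and 55 bases before it. In the Hmgcs1 window the element TCACCCCAC begins 137 bases before the start, between CCAAT boxes at 237, 176 and 45 bases. Of the 18 measured cholesterol synthesis genes, 15 had a window in the table, taken from 250 bases before to 50 after the start. Fdps, Fdft1 and Sqle had none. All 15 held CCAAT on at least 1 strand in at least 1 of their windows, against 41.1% of the 27025 genes in the table. The element TCACCCCAC was found in 1 of the 15, Hmgcs1, against 0.614% of all genes. Its looser form TCACNCCAC, which includes it, was found in the same 1 gene, against 1.44% of all genes. Ggps1, whose values lay near the pool, also held 3 CCAAT boxes. A match of letters is a description of the window and not a bound site. Other forms of the element were not searched, so a window without a match may still hold a site.

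Across all features, 3 of 19498 passed the limma test of the HFC mean against the pool after Benjamini-Hochberg adjustment (0.0154%). Of these, 2 were lower (0.0103%), Idi1 and Msmo1, and 1 was higher (0.00513%), a probe that the platform annotation does not name. At an unadjusted p under 0.05, 1302 features (6.68%) lay past the threshold, 654 of them higher (3.35%) and 648 lower (3.32%). The median 95% interval of a feature, taken without adjustment, reached 0.624 on either side of its mean. For a typical feature a mean nearer to 0 than that could not be told from 0 with 2 mice. Since few features passed, counts are also given without a test for features past 1 on both arrays: 59 of 18963 lay at or above 1 (0.311%) and 102 at or below -1 (0.538%). At a size of 0.5 on both arrays, 457 were at or above 0.5 (2.41%) and 536 at or below -0.5 (2.83%). Above 0 on both arrays lay 5614 (29.6%), and below 0 on both lay 5169 (27.3%).

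Idi1 encodes isopentenyl diphosphate isomerase, which supplies both building blocks of the isoprenoid chain. It lay at -4.48 in HFC replicate 1 and -4.27 in replicate 2, and fell by 4.38 on average (SE 0.240, n = 2, limma adjusted p = 0.0408). Both mice were far below the pool. Msmo1, the sterol C4-methyl oxidase, lay at -3.75 and -4.13 and fell by 3.94 (SE 0.195, n = 2, limma adjusted p = 0.0408). The unnamed probe lay at 3.90 and 4.57, with a mean of 4.24 (SE 0.257, n = 2, limma adjusted p = 0.0466).

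All 3 lie in displaced blocks, and all 3 calls rest on the values put back. At the deposited positions, HFC replicate 2 reads 0.07 for Idi1, -0.02 for Msmo1 and -0.83 for the unnamed probe. With the values as deposited or with those blocks left out, 0 features passed. The calls also depend on arrays of the other arms, which share the estimate of the spread: 0 features passed without either HFC replicate or without either fenofibrate replicate, and 30 passed without either lovastatin replicate. On the fenofibrate arrays, whose mice were in Cy3, Idi1 lay at -4.83 and -4.52, and Msmo1 at -3.75 and -4.08. These values hold if those ratios are also mouse over pool, and their sign turns if they are not. The part of the dye in these values was not tested.

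Just outside the threshold stood Sqle and Dio1 (limma adjusted p = 0.0502 for each), Sult2a8 (0.0516) and Dhcr7 (0.0597). Then came Fdps, Cyp2c55, Sc5d, Cyp8b1, Insig2, Rdh11, Mup5, Sult3a1, Acss2, Fdft1, Hsd17b7, Enho and 2 unnamed probes, all at a limma adjusted p of 0.0616. Enho, which encodes the secreted peptide adropin, lay at -2.28 and -2.45. The named ones are described by their values, since none of them passed.

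**Figure D2:**
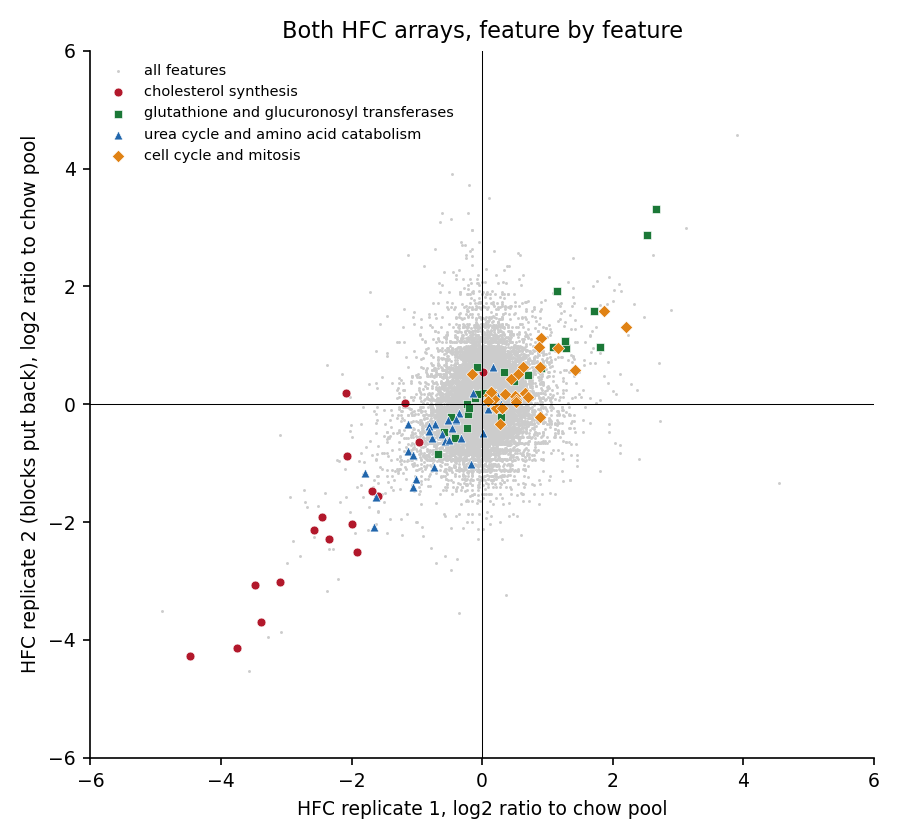
Log2 ratio to the chow pool in HFC replicate 1 (x axis) and HFC replicate 2 with its blocks put back (y axis), 1 point per feature, with 4 gene lists in colour. Cholesterol synthesis genes reach -4.48 and -4.27 at the lower left, glutathione transferases of the mu class reach 2.67 and 3.31 at the upper right, and most features lie near 0.

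Of the cholesterol synthesis list, 18 of 21 genes were measured and 17 of them on both arrays. On both arrays 14 lay below 0 (27.3% of all features did) and 12 at or below -1 (0.538%). The list's median was -2.19 (-2.22 in replicate 1 and -2.04 in replicate 2), beside 0.025 for all features. The 2 genes that passed belong to this list. On the low side, 15 of its members had an unadjusted p under 0.05 (3.32% of all features). Among these 15 is Hmgcs1, which was tested on replicate 1 alone.

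In the mevalonate arm the median was -2.28. Hmgcs1, the cytosolic HMG-CoA synthase that opens the route, was measured on replicate 1 only, at -3.67. Mvk, mevalonate kinase, lay at -1.18 and 0.02, so its mice disagreed, and its probe is outside the displaced blocks. Pmvk, the next kinase, lay at -1.92 and -2.50.

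Both mice were well below the pool for the later steps of this arm. Mvd, the decarboxylase that makes isopentenyl pyrophosphate, lay at -2.45 and -1.91. Fdps, which makes farnesyl pyrophosphate, lay at -3.38 and -3.69, with a mean of -3.54 (SE 0.275, n = 2). Fdft1, squalene synthase, lay at -2.58 and -2.14. Ggps1, which takes farnesyl pyrophosphate away to geranylgeranyl pyrophosphate rather than to sterol, lay at 0.01 and 0.54 and was the only measured member above 0 on both arrays, although at its deposited position replicate 2 reads -0.07.

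From squalene onward the median was -1.80, and 9 of 10 genes lay below 0 on both arrays (27.3% of all features). Sqle, squalene epoxidase and a control point of the route, lay at -3.48 and -3.06, with a mean of -3.27 (SE 0.214, n = 2). Lss, which closes the ring to lanosterol, lay at -2.08 and 0.20, the widest split between both mice in the list.

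The 8 measured enzymes that turn lanosterol into cholesterol lay below 0 on both arrays, by differing amounts. Cyp51, the C14-demethylase, lay at -1.60 and -1.55, and Tm7sf2, a sterol C14-reductase, at -1.69 and -1.48. Nsdhl and Hsd17b7, partners of Msmo1 in C4-demethylation, lay at -2.07 and -0.89 and at -2.00 and -2.04. Ebp, the sterol isomerase, had the smallest values on this side, -0.97 and -0.64. Sc5d, the C5-desaturase, lay at -2.35 and -2.29, and Dhcr7, a late reductase of the route, at -3.10 and -3.02. For Sc5d and Dhcr7 the mice differed by less than 0.1.

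Of the 18 genes, 13 have a probe in a displaced block. The 5 others, which need no rotation, were Mvk, Pmvk, Fdps, Sqle and Ebp, and 4 of them lay below 0 on both arrays. With the displaced spots of HFC replicate 2 left out the list's median was -2.28, but genes probed only there then rest on HFC replicate 1 alone. With the values as deposited the list's median was -1.28. Erg28, which anchors the C4-demethylation enzymes, and Mmab, whose gene lies beside Mvk, were not on the list. They were picked after their values were seen and lay at -1.65 and -1.63, and at -1.07 and -1.37.

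**Figure D3:**
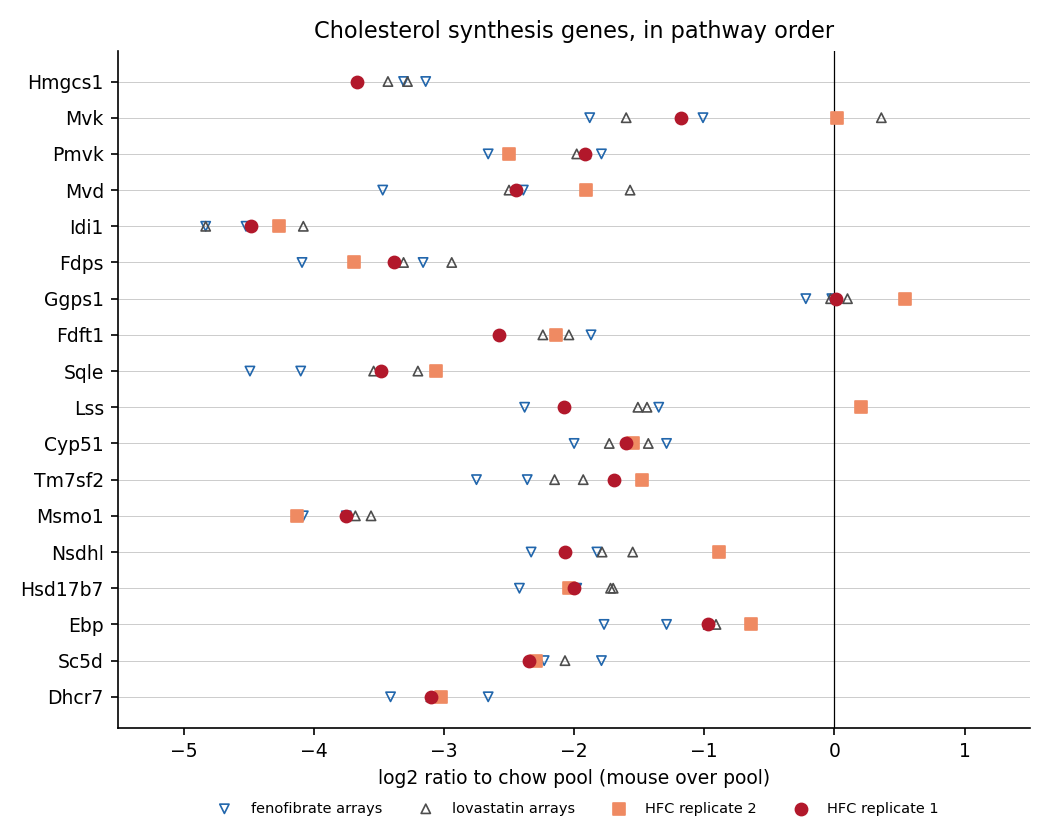
Log2 ratio to the chow pool (x axis) of the 18 measured cholesterol synthesis genes in pathway order (y axis), with filled symbols for both HFC arrays and open symbols for the 4 drug-arm arrays. Idi1 and Msmo1 lie between -4.48 and -3.75 on the HFC arrays, Ggps1 lies at 0.01 and 0.54, and Mvk and Lss split between both mice.

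Among sterol sensors, the INSIG genes went opposite ways. Insig1, which is itself a target of SREBP-2, lay at -2.95 and -1.57. Insig2 lay at 2.02 and 1.94, with a mean of 1.98 (SE 0.178, n = 2, limma adjusted p = 0.0616), and was above the pool in both mice by nearly the same amount. Srebf2, which encodes SREBP-2, lay at -0.92 and -0.04. Tmem97, a sterol-responsive partner of NPC1, lay at -0.81 and -0.88. Of the 10 genes of sterol sensing and uptake measured on both arrays, 7 lay below 0 on both (27.3% of all features). The list's median was -0.36.

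For sterol export, Abcg5 lay at 1.26 and 1.33, while Abcg8, its partner in the same transporter, lay at 0.38 and 0.14. Scarb1, the hepatic receptor for high-density lipoprotein, lay at 1.07 and 0.65. Abca1, the pump that loads apolipoprotein A1, lay at 0.13 and -0.23. Lpl, lipoprotein lipase, lay at 1.92 and 1.70, and Pltp, the phospholipid transfer protein, at -0.87 and -0.91. The 11 measured genes of efflux and of the sterol receptor LXR thus did not move as one, with a median of 0.15. At or above 1 on both arrays lay 2 (0.311% of all features), and at or below -1 lay 0 (0.538%).

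Bile acid synthesis genes were low while the main exporter was high. Cyp7a1, the rate-limiting enzyme, lay at -1.67 and -1.40 (limma adjusted p = 0.166). Cyp8b1, the 12-hydroxylase that sets the share of cholic acid, lay at -2.79 and -2.58, with a mean of -2.69 (SE 0.240, n = 2). Hsd3b7, the next enzyme after Cyp7a1, lay at -0.94 and -1.31. Of the 8 synthesis enzymes measured on both arrays, 6 lay below 0 on both (27.3% of all features) and 0 above 0 (29.6%). The enzymes' median was -0.48.

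The transporters had a median of 0.42. Abcb11, the bile salt export pump, lay at 1.58 and 1.64, and Abcb4, the phospholipid exporter beside it, at 0.57 and 0.66. Slco1a4, an uptake carrier, lay at 0.70 and 1.27, but Slc10a1, the main carrier for bile salts from blood, lay at -0.82 and -0.83. Nr0b2, which encodes SHP, lay at 0.98 and 1.29, and Nr1h4, which encodes FXR, at -0.18 and -0.25. The replicate 2 value of Nr0b2 was put back, and its deposited position reads -0.93.

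Among enzymes of fatty acid synthesis, 9 of the 11 measured on both arrays lay below 0 on both (27.3% of all features). The enzymes' median was -0.64. Acss2, which activates acetate, lay at -2.21 and -2.96, and Acly, which frees acetyl-CoA from citrate, at -1.67 and -1.46. Fasn, fatty acid synthase, lay at -2.01 and -0.35, and Scd1, the main desaturase, at 0.19 and 1.09, so both mice differed widely for these genes. Acacb, which makes malonyl-CoA at mitochondria, had a value on replicate 1 only, -2.46. Elovl6 (-0.86 and -0.51) and Fads1 (-0.58 and -0.77) were below the pool in both mice.

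Fatty acid oxidation genes ranged from below the pool to well above it. Of 5 omega-hydroxylases, 4 lay above 0 on both arrays (29.6% of all features did). Cyp4a14 lay at 1.28 and 0.58, Cyp4a10 at 0.49 and 0.55, and Cyp4a12a at 0.53 and 0.82, whereas Cyp4f14, which also acts on leukotrienes, lay at -1.0 and -0.80. Ehhadh, the peroxisomal bifunctional enzyme, lay at 1.03 and 0.71. The 11 genes of mitochondrial beta-oxidation lay between -0.11 and 0.16 as means of both arrays. Both measured genes of ketone body metabolism, Acat1 (-0.70 and -0.84) and Bdh1 (-0.16 and -0.92), lay below 0 on both arrays. Acot1, an acyl-CoA thioesterase, lay at 2.48 and 1.48, while Pdk4, the kinase that shuts off pyruvate dehydrogenase, lay at 0.58 and -0.58. Probes of the Cyp4a family may take up RNA of near-identical copies.

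Lipid droplet and lipoprotein genes were split. Plin5 and Plin4, which coat droplets, lay at 1.43 and 1.28 and at 0.70 and 1.75. Fabp2, a fatty acid binding protein best known from the intestine, lay at 1.80 and 1.69, and the liver form Fabp1 at 0.87 and 0.84. The intestine markers Vil1, Sis, Fabp6 and Cdx2 lay between -0.16 and 0.19 as means of both arrays. Apoc2, the cofactor of lipoprotein lipase, lay at 1.65 and 1.17, Angptl8, a blocker of that lipase, at 1.08 and 1.89, and Apoa1 at -0.53 and -0.80.

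**Figure D4:**
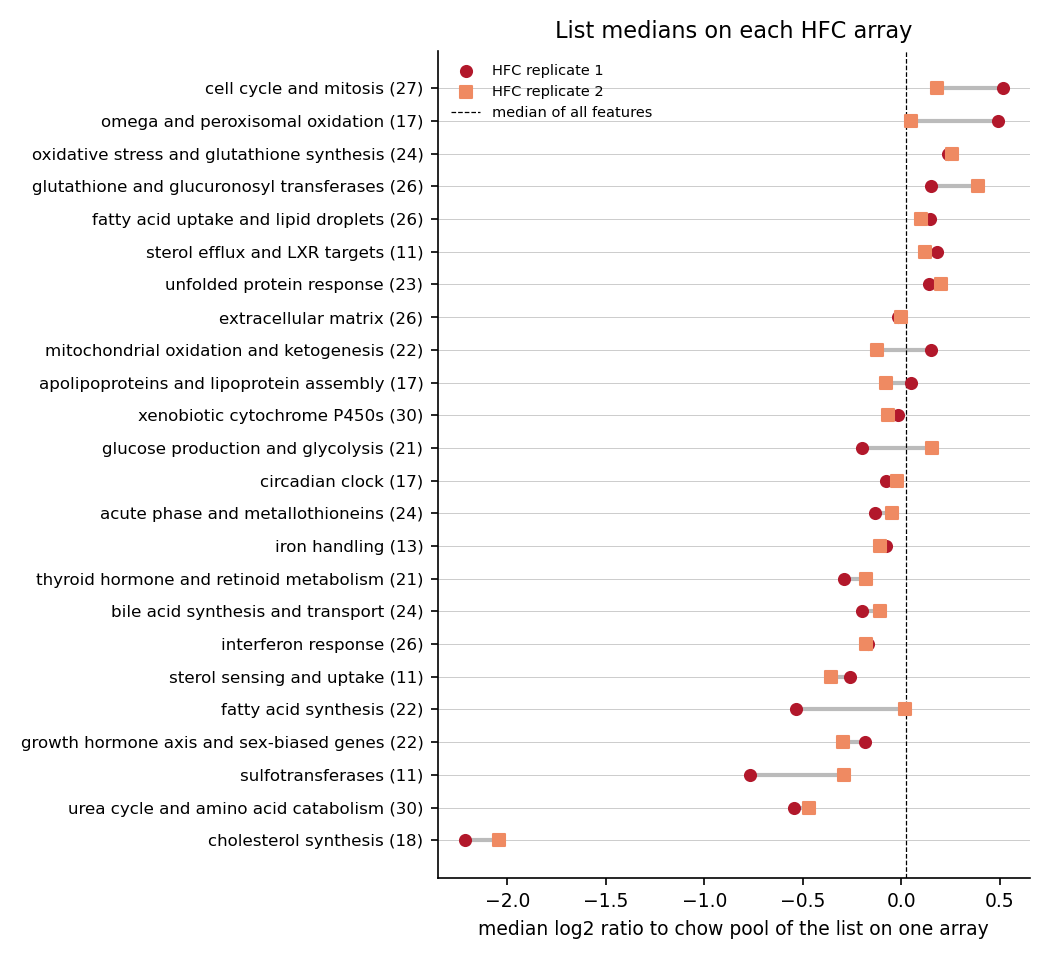
Median log2 ratio to the chow pool (x axis) of each gene list (y axis, number of measured genes in parentheses) on HFC replicate 1 (circles) and replicate 2 (squares), with the median of all features dashed. Cholesterol synthesis stands at -2.22 and -2.04 and the urea and amino acid list at -0.54 and -0.47, while cell cycle genes stand at 0.52 and 0.18.

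Some genes of hormone and retinoid handling lay far below the pool. Dio1, the deiodinase that makes active thyroid hormone in liver, lay at -2.35 and -2.46, with a mean of -2.40 (SE 0.163, n = 2, limma adjusted p = 0.0502), and its probe needs no rotation. Slc16a10, a thyroid hormone and aromatic amino acid carrier, lay at -1.30 and -1.09. Rdh11, a retinol dehydrogenase, lay at -2.58 and -2.25, and Rdh16 at -1.0 and -1.12. Of the 20 thyroid and retinoid genes measured on both arrays, 11 lay below 0 on both (27.3% of all features). At or below -1 on both lay 4 (0.538%).

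Sulfotransferases, which attach sulfate to steroids, bile acids and drugs, included very low members. Sult3a1 lay at -4.91 and -3.50, with a mean of -4.21 (SE 0.381, n = 2). Sult2a8, which acts on bile acids, lay at -3.28 and -3.95, and Sult1e1, the estrogen sulfotransferase, at -2.19 and -0.96. Of the 11 measured genes on the sulfotransferase list, which does not hold Sult2a8, 6 lay below 0 on both arrays (27.3% of all features). The list's median was -0.53.

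In the growth hormone axis, Cish, a feedback inhibitor of the receptor, lay at -1.53 and -1.09, and Ghr, the receptor, at -0.90 and -0.64. Of the 9 axis genes, 5 lay below 0 (27.3% of all features) and 2 above 0 (29.6%) on both arrays. The 2 above 0 were Socs2 (1.01 and 0.31) and Jak2 (0.03 and 0.51). Mup5, a major urinary protein, lay at -2.37 and -3.17, and probes of this family may take up RNA of near-identical copies. Of the 22 measured genes of this list, 13 lay below 0 on both arrays (27.3% of all features did), with a median of -0.42. Of 6 measured female-biased genes, 5 lay below 0 on both arrays (27.3% of all features), with a median of -0.65. They were Sult3a1, Cyp17a1 (-0.52 and -1.28), Cyp2b9 (-0.62 and -0.98), Cyp2b13 (-0.16 and -0.76) and Acot3 (-0.05 and -0.94), while Cyp3a41a lay at 1.31 and 1.12. Of 7 measured male-biased genes, 3 lay below 0 (27.3% of all features) and 1 above 0 (29.6%) on both arrays, with a median of -0.17. The 1 above 0 was Cyp4a12a, at 0.53 and 0.82.

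Xenobiotic P450s held some of the highest and some of the lowest values. Cyp2c55 lay at 3.13 and 3.00, with a mean of 3.06 (SE 0.245, n = 2, limma adjusted p = 0.0616), the highest smaller value of any named gene. Cyp3a11 lay at 2.33 and 1.71, Cyp3a25 at 2.13 and 1.92, and Cyp3a41a at 1.31 and 1.12, whereas Cyp3a16 lay at -2.71 and -1.65. Nr1i2, which encodes the xenobiotic receptor PXR, lay at 1.16 and 1.41, and Nr1i3, which encodes CAR, at -0.03 and -0.24.

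Other P450s were low in both mice. Cyp2c37 lay at -1.40 on both arrays, Cyp2e1, the ethanol-oxidising form, at -0.88 and -1.26, and Cyp2c40 at -0.86 and -0.93. Of 30 measured P450 and receptor genes, 5 lay at or above 1 on both arrays (0.311% of all features). At or below -1 on both lay 2 (0.538%), and the median was -0.05. The 5 measured family 3 genes had a median of 1.22 and the 22 of families 1 and 2 a median of -0.10. Some genes of the Cyp2c and Cyp3a clusters are near-identical copies, and the probes of those may share RNA.

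Among conjugating enzymes, glutathione transferases of the mu and alpha classes held high values. Gstm3 lay at 2.67 and 3.31, Gstm1 at 2.52 and 2.87, Gstm2 at 1.72 and 1.58, and Gstm6 at 1.15 and 1.92. These are 4 of the 6 mu-class genes measured on both arrays, and the class had a median of 1.54. Gstp1 lay at 1.27 and 1.07 and Gsta4, which clears lipid aldehydes, at 1.81 and 0.97. Gsta1 lay at 1.29 and 0.95 and Gsta3 at -0.42 and -0.57, and the 3 measured alpha-class genes had a median of 1.12. Of 7 measured glucuronosyl genes, 3 lay above 0 (29.6% of all features) and 3 below 0 (27.3%) on both arrays. Ugt2b35 (1.09 and 0.98) and Ugt2b38 (0.90 and 0.62) were among the former, and Ugt3a1 (-0.67 and -0.84) among the latter. The Gstm genes are close copies, so their probes may not be independent, and at its deposited position Gstm3 reads -1.51 in replicate 2.

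Genes of the antioxidant response were above the pool more often than below. Of 24 measured, 15 lay above 0 (29.6% of all features) and 4 below 0 (27.3%) on both arrays, with a median of 0.27. Gclc and Gclm, which together form the rate-limiting enzyme of glutathione synthesis, lay at 1.57 and 1.06 and at 1.09 and 0.97. Ephx1, microsomal epoxide hydrolase, lay at 1.34 and 1.51. Nqo1 (-0.10 and -0.04) and Hmox1 (0.12 and -0.06), which are commonly read as targets of the same factor NRF2, lay near 0. Ces2a, a carboxylesterase, lay at 2.62 and 2.53.

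**Figure D5:**
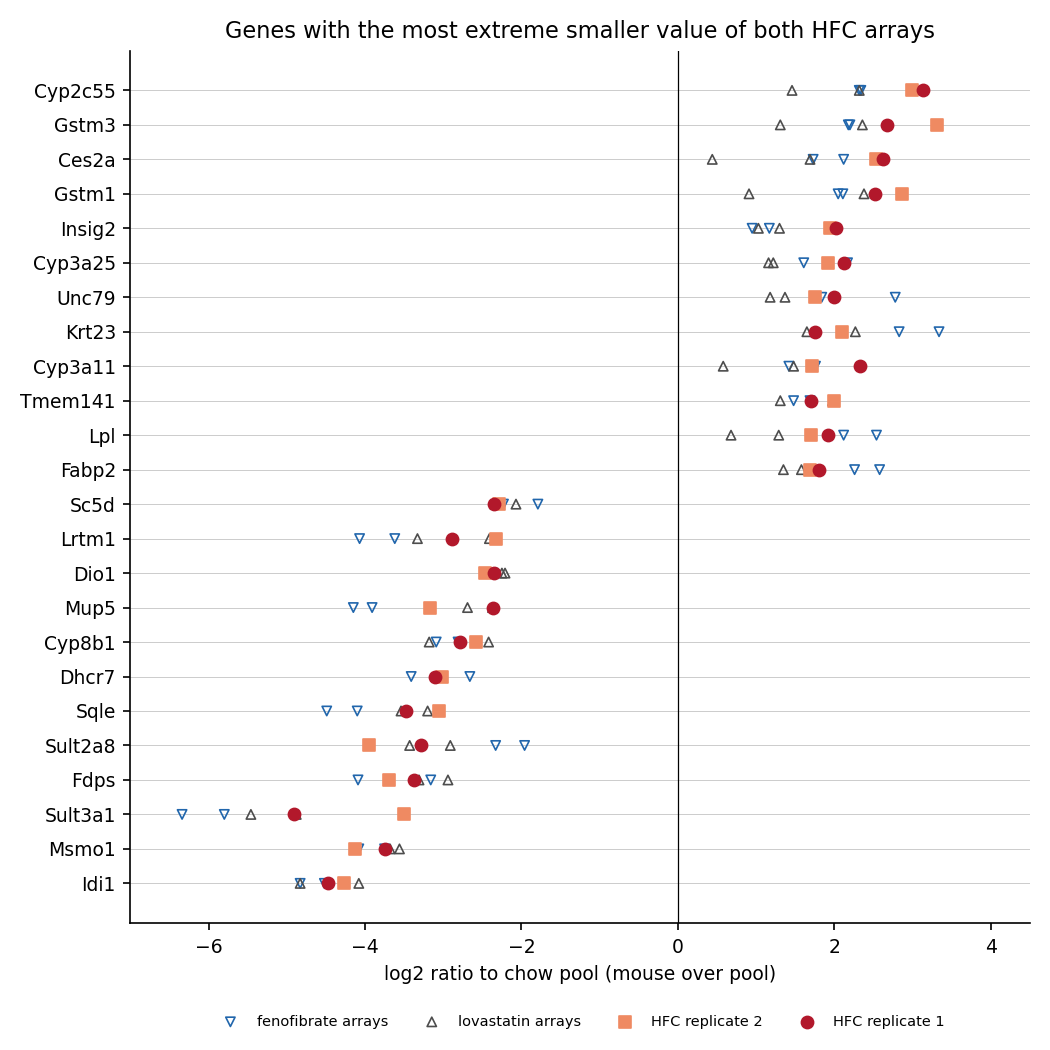
Log2 ratio to the chow pool (x axis) of the 12 named genes with the highest and the 12 with the lowest smaller value of both HFC arrays (y axis), with filled symbols for the HFC arrays and open symbols for the drug arms. Cyp2c55 stands at 3.13 and 3.00 and Idi1 at -4.48 and -4.27, and 5 of the 12 high genes and 7 of the 12 low genes have a probe in a displaced block.

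Most genes of amino acid catabolism lay below the pool in both mice. Of 30 measured genes, 23 lay below 0 (27.3% of all features) and 4 above 0 (29.6%) on both arrays, with a median of -0.56. On both arrays 12 lay at or below -0.5 (2.83% of all features) and 5 at or below -1 (0.538%). In the sulfur branch, Bhmt, which remethylates homocysteine, lay at -1.66 and -2.09 (limma adjusted p = 0.0813), Gnmt, which disposes of methyl groups, at -1.01 and -1.26, and Mat1a, which makes S-adenosylmethionine, at -1.06 and -0.86. Prodh, proline dehydrogenase, lay at -1.79 and -1.17, Got1, the cytosolic aspartate transaminase, at -1.62 and -1.57, and Oat at -1.06 and -1.41.

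The urea cycle itself was closer to the pool, with a median of -0.28. Cps1, its first enzyme, lay at -0.82 and -0.37, Ass1 at -0.72 and -0.33, and Otc at 0.29 and 0.01. With the values as deposited the whole list's median was -0.39. Hepatocyte markers, of which Cps1 and Tat are also on this list, had a median of -0.45, and their part in these values was not tested.

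Most cell cycle genes lay above the pool in both mice. Of 27 measured, 22 lay above 0 on both arrays (29.6% of all features did) and 0 below 0, with a median of 0.32. At or above 0.5 on both arrays lay 9 (2.41% of all features), and at or above 1 lay 2 (0.311%). None of the 27 passed the limma test, and 5 had an unadjusted p under 0.05 on the high side (3.35% of all features). Ccnd1, cyclin D1, lay at 1.86 and 1.58 (limma adjusted p = 0.403), and Cdkn1a, which encodes the inhibitor p21, at 2.20 and 1.31 (limma adjusted p = 0.228). Mki67, the proliferation marker, lay at 0.90 and 1.13, Rrm2, a ribonucleotide reductase subunit, at 0.87 and 0.98, Birc5, survivin, at 1.17 and 0.95, and Aurkb, a mitotic kinase, at 0.89 and 0.64. The 12 mitosis genes had a median of 0.48 and the 9 replication genes, which include Pcna at 0.14 and 0.21, a median of 0.14.

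Markers of other cells moved little as lists. The 10 Kupffer cell markers measured had a median of -0.22, the 9 sinusoidal endothelial markers -0.17, the 8 stellate cell markers 0.20, and the 8 lymphocyte markers -0.09. The 7 neutrophil and monocyte markers had a median of 0.14, the 4 erythroid markers 0.12, the 5 adipocyte markers -0.18, the 4 pancreas markers -0.04 and the 4 intestine markers -0.05. For the cholangiocyte list the median of 8 markers was 0.04, yet Krt23, a keratin, lay at 1.76 and 2.10, Prom1, a progenitor marker, at 2.23 and 1.17, and Krt19, the duct keratin, at 0.59 and 0.62. Sox9 (-0.20 and -0.11) and Cldn7 (-0.12 and -0.09), also duct markers, lay just below 0.

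The remaining lists had medians near the pool, with named exceptions. For glucose metabolism the median was -0.05, with Slc37a4, the glucose-6-phosphate carrier, at 0.56 and 0.59 and Fbp1 at -0.83 and -0.60. For the acute phase and metallothioneins it was -0.07, with Cp, ceruloplasmin, at 0.95 and 0.85 and Serpina3n at -0.86 and -1.06. On this list the mice disagreed for the 2 metallothioneins, whose median was -0.545 in replicate 1 and 1.32 in replicate 2. For iron handling the list's median was -0.07, with Slc40a1, the iron exporter ferroportin, at 1.04 and 1.28. Hamp, which encodes its blocker hepcidin, lay at -0.90 and -2.24.

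The unfolded protein response list had a median of 0.14, with Herpud1 at 0.64 and 0.69 and Pdia4 at -0.90 and -0.58. Of its 23 measured genes, 12 lay above 0 (29.6% of all features) and 5 below 0 (27.3%) on both arrays. Interferon genes had a median of -0.19, with Gbp3 at -0.89 on both arrays and Isg15 at -0.63 and -0.94. Of the 24 interferon genes measured on both arrays, 14 lay below 0 (27.3% of all features) and 2 above 0 (29.6%) on both. Clock genes had a median of -0.07, with Dbp, a clock output, at -1.78 and -0.72. Matrix genes had a median of 0.09, with Col4a1 at 0.67 and 0.56, and 0 of 26 past 1 on both arrays. Other high or low genes had no list: Unc79 lay at 2.0 and 1.76, Tmem141 at 1.70 and 2.0, and Lrtm1 at -2.89 and -2.32.

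Whether the diet arm differed from the drug arms was tested directly in the same fit. For HFC minus lovastatin, 0 of 19487 features passed (0%), with 597 at an unadjusted p under 0.05 (3.06%) and a lowest limma adjusted p of 0.826. For HFC minus fenofibrate, 0 of 19457 passed (0%), with 774 at an unadjusted p under 0.05 (3.98%) and a lowest limma adjusted p of 0.999. The median 95% interval, taken without adjustment, reached 0.881 and 0.877 on either side, so differences below that size could rarely be seen. After adjustment larger ones did not pass either, such as Mt1 against lovastatin (3.11). Without lovastatin replicate 2 the first count became 2005, which sets both HFC mice against lovastatin replicate 1 alone, an array whose values spread most (SD 1.09, against 0.419 to 0.570 on the other 5). Turning the sign of both fenofibrate arrays brought the second count to 116.

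The 5 named genes of smallest p against lovastatin were Btbd35f1 (a difference of 1.87), Gse1 (2.27), Mt1 (3.11), Adcy2 (1.88) and Avil (1.82). Mt1, a metallothionein, lay at -0.05 and 1.08 on the HFC arrays and at -2.28 and -2.91 on the lovastatin arrays. Against fenofibrate they were Cyp4a31 (-2.33), Aim2 (-2.82), Chst11 (-2.03), Defa20 (-1.59) and Vnn1 (-2.32). Cyp4a31, a fatty acid hydroxylase induced through PPAR-alpha, lay at 0.59 and 0.55 on the HFC arrays and at 3.01 and 2.79 on the fenofibrate arrays. Vnn1, pantetheinase, lay at 0.26 and -0.63 against 1.96 and 2.31. Dye and fenofibrate cannot be told apart in these differences. The genes named for each drug arm were picked by p for the same difference, so their values only describe it.

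Cholesterol synthesis genes also lay below the pool in the drug arms. The list's median was -2.10 and -1.92 on the lovastatin arrays and -2.06 and -2.40 on the fenofibrate arrays, beside -2.22 and -2.04 on the HFC arrays. All 3 arms are set against the same pool, and these levels are given side by side only. For Insig2 the HFC values of 2.02 and 1.94 lay above the 1.30 and 1.03 of the lovastatin arrays and the 0.95 and 1.17 of the fenofibrate arrays. The differences, 0.81 and 0.92, did not pass (limma adjusted p = 0.826 and 0.999). Abcb11 lay at 1.58 and 1.64 against 0.57 and 1.10 with lovastatin and 0.73 and 0.90 with fenofibrate, and those differences did not pass either (limma adjusted p = 0.826 and 0.999).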

How the data were processed

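The 6 arrays each compared liver RNA of 1 mouse with the chow pool in 2 colours, starting from 0.5 µg of RNA per the labels' protocols. Per the labels each replicate is a mouse of its own. Lovastatin arrays were grouped by title, since their treatment text names fenofibrate instead.

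The authors deposited 1 log ratio per spot and array, taken as log2 by convention. How these were scanned, background-corrected and normalized is not given in the sources used here. The median of each array lay between -0.01 and 0.03. Without intensities no dim probe could be filtered, and precision is limited by having 2 mice.

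The table has 22575 spots. Removing 726 that were blank throughout and 561 repeated controls gave 21288 probes. By the platform annotation, 18658 probes have 1 symbol and 30 have several, while 3887 spots have none. The Entrez number matched 18445 probes to the gene table, with 0 updated symbols. A gene's probes were averaged (1247 genes had more than 1), giving 16887 genes and 2630 unnamed probes, 19517 features in all. In HFC replicate 2 the 4 displaced blocks were rotated forward with controls and blanks masked first.

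Group means of all 6 arrays were fitted with limma 3.58.1 in R 4.3.3 (3 residual degrees of freedom, prior 2.47), adjusted by Benjamini-Hochberg over all features at a threshold of 0.05, and the fit was tested on simulated data. Values were tabulated with Python 3.11.15. Genes are named if they passed, if among the 12 highest or 12 lowest by the smaller value of both HFC arrays, if among the 4 of smallest p of a list or on the cholesterol list, if in a short fixed set of sterol and lipid genes, or, for a difference between arms, if among the 5 of smallest p. Further list members are named to show their role after their values were seen. The lists, the rotations and the members were chosen with earlier results of these data known, so lists carry counts and medians and no test. Replicate numbers did not pair the mice: deviations of same-numbered arrays had r between -0.0138 and 0.0296. The alternatives were the displaced blocks as deposited or left out, array centring and quantile normalization, single probes, a filter on the noisiest 10% of features, a robust prior, array weights, fewer arrays in the fit, a replicate block, the sign of the fenofibrate arrays, leaving out each array, and a size of 0.5 in place of 1.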

Additional observations from a re-analysis of the deposited data

Results flagged for a closer look

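Some genes lay on one side of the pool on both HFC arrays and on the other side on both arrays of a drug arm. The rule was applied to the 131 named genes and is no test. Of these differences, 0 passed the limma test of the difference (adjusted p of at least 0.826). Btbd35f1, Adcy2 and Avil were named by their small p for HFC minus lovastatin. Aim2, Chst11 and Defa20 were named by their small p for HFC minus fenofibrate. These genes were thus picked by a difference that the rule then lists. The share of all features meeting the rule was not counted, and these lists have no background to be read against. Values are HFC minus the drug arm on the log2 scale.

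Against lovastatin, the genes higher in HFC were Adcy2 (1.88), Btbd35f1 (1.865), Avil (1.82), Npas2, a clock gene (1.69), Cry2, a clock repressor (1.24), and Slc37a4, the glucose-6-phosphate carrier (0.87). Those lower in HFC were Col6a1, a collagen (-1.10), Bdh1, the ketone body dehydrogenase (-0.78), and Fn1, fibronectin (-0.465). Npas2 had an HFC mean of 0.815 and a lovastatin mean of -0.875.

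Against fenofibrate, the genes higher in HFC were Npas2 (1.435), Btbd35f1 (1.41), Trf, transferrin (1.165), Slc37a4 (0.755), Adcy2 (0.55) and Ggps1 (0.395). Those lower in HFC were Aim2 (-2.82), Chst11 (-2.03), Defa20 (-1.59), Acat1, a thiolase of ketone metabolism (-0.995), and Bdh1 (-0.66). The mouse was in Cy3 on the fenofibrate arrays, and dye and drug cannot be told apart.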

How the results depend on the processing

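The 3 calls against the pool depend on the processing. The count was 0 with the values of HFC replicate 2 as deposited, 0 with its displaced blocks left out, 0 with only the compared arrays in the fit, 0 with only the Cy5 arrays, and 0 with the replicate number as a block, although the numbers do not pair the mice; at an unadjusted p under 0.05 the counts were 943, 913, 1509, 841 and 1122 in limma. It was 5 with median centring (4 lower), 14 with quantile normalization (all lower), 52 without the noisiest features and 50 with array weights, and leaving out each array gave 0 to 30. All 3 calls were among those made with median centring, without the noisiest features and with array weights, and 2 among those with quantile normalization, and the cause of the other counts was not tested. A robust prior or single probes kept 2. Where 1 array of a group was left out, the lone array was assumed to vary like the other groups. Against the pool, leaving out replicate 1 or replicate 2 of a drug arm therefore gave the same fit. Without a fenofibrate replicate that fit was also the one with only the Cy5 arrays, so these settings are not separate outcomes. Counts past 1 on both arrays need both and were not run with an array left out. Array weights and the block used the 18295 features with all 6 values. Idi1 and Msmo1 had limma adjusted p from 0.00365 to 0.937 over all settings, the highest with the values as deposited, and 0.0829 with the replicate block.

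For HFC minus lovastatin, leaving out an array gave 0 to 2005. For HFC minus fenofibrate, the turned sign gave 116. The 59 features at or above 1 on both arrays became 36 with blocks left out, where fewer features have both values, 113 with quantile normalization and 457 at a size of 0.5; the 102 at or below -1 became 55 as deposited, 51, 168 and 536. The median of the cholesterol list, -2.19, was -1.28 as deposited and -2.57 after quantile normalization, and -2.22 to -2.04 without either HFC array.

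Some small values changed sign. As deposited, the P450 median was 0.0075, the acute phase median 0.09, Fbp1 0.045 and Ggps1 -0.03. The matrix median was -0.10 with blocks left out and -0.015 without HFC replicate 2, and that of intestine markers 0.04 without it. Without either HFC array, Lss ranged from -2.08 to 0.20 and Mvk from -1.18 to 0.02. With the fenofibrate sign turned, HFC minus fenofibrate was 3.47 for Cyp4a31, 0.28 for Aim2, 1.31 for Chst11 and 1.95 for Vnn1. Signal over background could not be judged from ratios.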
